A study of Mus musculus with 8 samples.

Results

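The growth hormone, STAT5 and IGF axis was taken here as 10 genes, chosen by name: *Ghr*, *Jak2*, *Stat5a*, *Stat5b*, *Igf1*, *Igfals*, *Igfbp3*, *Socs2*, *Cish* and *Bcl6*. All 10 were found among the 27179 genes of the deposited table, and all 10 had reads. RNA was sequenced from livers of 4 wild-type mice (V227) and 4 mice homozygous for the A227 allele of *Ppara* (V227A). All were adult males of strain C57BL/6NHsd, fasted for 6 h. The allele is a germline base edit, carried by all tissues and descended from a single founder that was backcrossed to the same strain. *Ppara* encodes a nuclear receptor that switches on lipid catabolism in the fasted liver.

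For each gene the authors' table gives 1 level, the average log2 CPM (CPM, counts per 1000000 reads on genes) over all 8 libraries of both genotypes together. Its other measurements are the authors' own comparison of the genotypes, which was not used here. A level per mouse, a spread between mice and a difference between wild-type and V227A were therefore not analysed here. What follows describes how much of each transcript these fasted male livers held, with no test. All intervals cover counting error only and leave out the spread between mice.

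In the liver, growth hormone binds the growth hormone receptor, which has no kinase activity of its own and works through the attached kinase JAK2. JAK2 phosphorylates STAT5, which enters the nucleus and switches on *Igf1* and other genes. The IGF1 made in hepatocytes circulates in a large complex with IGFBP3 and the acid-labile subunit, and it restrains growth hormone release from the pituitary. SOCS2 and CIS, themselves products of STAT5 targets, dampen the signal at the receptor, and BCL6 is a repressor that binds DNA sites similar to those of STAT5.

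To compare genes with each other, reads were divided by transcript length. The level per length is the CPM of a gene per kilobase of its longest annotated RNA. Its median over the 17961 named genes with reads and a known length was 1.40, its 75th percentile was 7.25 and its 90th percentile was 25.2. All 10 genes of the axis lay above the median. Among genes with an average log2 CPM of at least 0 alone, *Jak2* (percentile 32.0), *Stat5a* (38.7) and *Cish* (48.5) lay below it, and *Jak2* also did with the coding length (46.9) or the median length of coding RNAs (48.3) in place of the longest RNA. The median level per length of the 10 genes was 6.38, and the median of their percentiles among the 17961 genes was 72.9. Only *Ghr*, *Igf1* and *Igfals* lay above the 90th percentile. Together the 10 genes took 0.121% of all reads, and *Ghr* and *Igf1* made up 79.1% of that share.

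**Figure D1:**
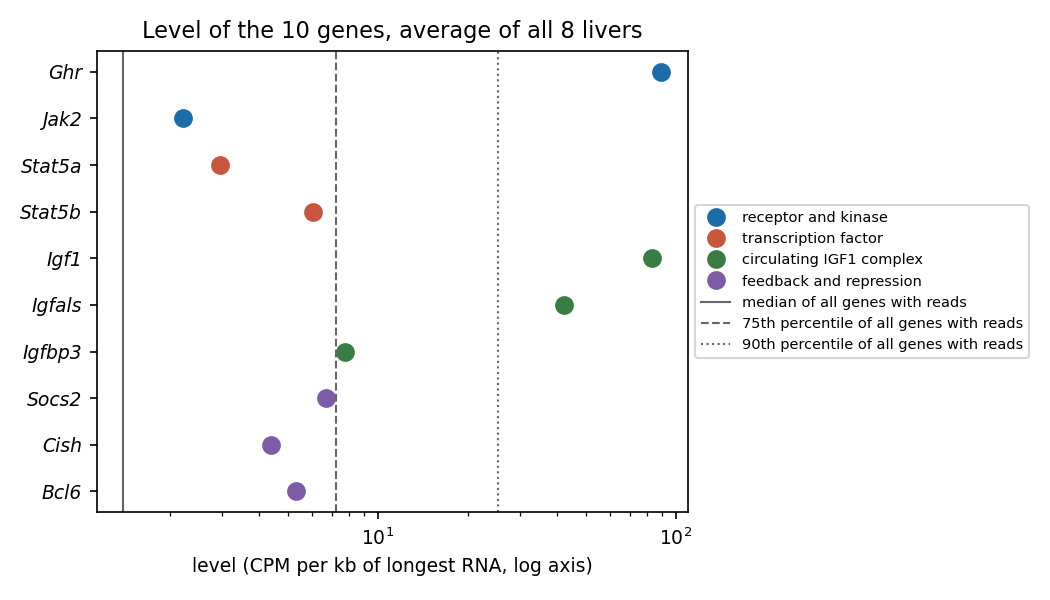
Each point is the level of 1 gene (horizontal log axis, CPM per kilobase of longest RNA), coloured by role, from the authors' average over all 8 libraries; vertical lines mark the median, 75th and 90th percentiles of all named genes with reads. *Ghr* (89.1), *Igf1* (83.2) and *Igfals* (42.2) stand to the right of the 90th percentile line, and the other 7 genes lie between 2.21 and 7.78.

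The DNA motif that STAT5 dimers bind has the letters TTCNNNGAA, which read the same on both strands. It was searched in the RefSeq promoter windows of GRCm38.p6, each running from 250 bases before a transcription start to 50 bases after it. Of the 10 genes, 9 had a window, 15 windows in all, and *Socs2* had none. The motif was present in 5 of the 15 windows, which belong to 3 genes, *Igfals*, *Cish* and *Bcl6*. Among all 32851 windows, 8.30% held the motif, 0.457% held it at least 2 times and 0.0335% held it at least 3 times. Counted by gene, the motif was present in 3 of the 9 genes with a window, against 9.55% of all 27025 genes. Some genes, such as *Igfals* and *Bcl6*, have several windows, so the windows are not independent of each other. The 9 genes also had more windows per gene (15 for 9) than all genes (32851 for 27025). A gene with more windows has more places for a match, so the shares by gene are not on equal terms. Whether the axis held the motif more often than other genes was not tested. The matches are printed here because these genes are known for their link to STAT5, with the motif in capitals and each sequence read 5′ to 3′ on the strand of its gene.

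*Igfals*, upstream of the first start, chr17:24877594-24877636, plus strand: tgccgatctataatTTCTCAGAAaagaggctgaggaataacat
*Igfals*, upstream of the second start, chr17:24878153-24878201, plus strand: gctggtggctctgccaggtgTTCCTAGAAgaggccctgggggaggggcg
*Cish*, at the start, chr9:107296654-107296683, plus strand: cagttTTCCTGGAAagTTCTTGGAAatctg
*Bcl6*, upstream of the first start, chr16:23988942-23988990, minus strand: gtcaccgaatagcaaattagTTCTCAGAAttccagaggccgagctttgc
*Bcl6*, upstream of the second start, chr16:23981343-23981471, minus strand: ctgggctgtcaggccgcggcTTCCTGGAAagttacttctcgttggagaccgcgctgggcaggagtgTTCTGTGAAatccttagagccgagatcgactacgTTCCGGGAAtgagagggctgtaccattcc

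The last of the *Igfals* windows held no match. The second *Bcl6* window held 3 matches and is among the 11 of all 32851 windows with at least 3, and the *Cish* window held 2 matches separated by a short spacer. The windows of *Ghr*, *Jak2*, *Stat5a*, *Stat5b*, *Igf1* and *Igfbp3* held 0 matches to these letters. *Igf1* is a classical STAT5 target whose known sites lie far from its start, outside such a window. The idealised site of PPAR with its partner RXR, the direct repeat of AGGTCA with 1 base between the copies (DR1), was searched on both strands as well. It was found in 0 of the 15 windows and in 0.0396% of all windows. An exact repeat this rare was unlikely to occur in 15 windows, so its absence does not show that these genes lack PPAR sites. A match in the letters does not show that a factor binds there, and no binding was measured in these libraries.

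*Ghr* encodes the growth hormone receptor and lies on chromosome 15 of GRCm38, from 3317760 to 3583492 on the minus strand. *Ppara*, the edited gene, is on the same chromosome, 82.2 megabases away. The average log2 CPM of *Ghr* was 8.54, which corresponds to an estimated 10222 reads per library (95% counting interval 10152 to 10292). Its level per length was 89.1, the highest of the axis, at percentile 96.4 of all genes. Hepatocytes are known as a main site of growth hormone receptor expression. *Prlr*, the gene of the related prolactin receptor, had a level per length of 8.15, so *Ghr* stood 10.9-fold above it (counting interval 10.8 to 11.1).

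*Jak2* encodes the kinase that carries the signal of the receptor and lies on chromosome 19 from 29251828 to 29313080. It stood at the other end of the axis. At an average log2 CPM of 3.49, it had an estimated 306 reads per library (counting interval 294 to 318). The level per length of 2.21 was the lowest of the 10 genes, at percentile 56.1. *Ghr* was thus 40.2-fold above *Jak2* per length (counting interval 38.7 to 41.9). Among the 4 Janus kinase genes *Jak2* took place 3. *Jak1*, which serves interferon and interleukin receptors, had a level per length of 14.8, 6.70-fold that of *Jak2*. *Tyk2* had 4.52 and *Jak3*, mainly a kinase of lymphoid cells, had 2.14, close to *Jak2*.

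*Stat5a* and *Stat5b* are neighbouring paralogs on chromosome 11, on opposite strands and 8626 bases apart. *Stat5b* (100780731 to 100850724, minus strand) is known as the main STAT5 of liver. Its average log2 CPM was 4.98, an estimated 866 reads per library with a counting interval of 846 to 887. *Stat5a* (100859351 to 100885169, plus strand) had an average log2 CPM of 3.55 and an estimated 321 reads per library, with a counting interval of 308 to 333. Per length the levels were 6.05 for *Stat5b* and 2.95 for *Stat5a*, at percentiles 72.0 and 60.4. *Stat5b* therefore stood 2.05-fold above *Stat5a* per length (counting interval 1.96 to 2.15). It took 73.0% of the reads of the pair (exact binomial interval 72.1 to 73.9%).

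Because the paralogs are alike, reads could be split between them. Their coding sequences of 2394 and 2361 bases were identical at 90.7% of 2294 aligned bases, with a longest identical run of 324 bases. Of the different stretches of 50 bases in *Stat5b* RNAs, 11.0% also occurred in *Stat5a*, and 8.21% of those of *Stat5a* occurred in *Stat5b*. The ratio of the pair is therefore uncertain, and how far shared stretches moved it was not examined. *Stat5a* also shares 72 exonic bases, 1.01% of its exonic sequence, with *Stat3* on the opposite strand, and the strand setting of the counting is not given in the sources used here.

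Among the 6 STAT genes looked at, *Stat5b* took place 4 and *Stat5a* place 5. *Stat6*, which answers to interleukin 4 and interleukin 13, had the highest level per length, 14.6, although *Stat3* was highest with the coding length (32.3 against 21.9). *Stat2* followed with 13.4 and *Stat3*, the factor of the acute-phase response, with 12.4. *Stat3* stood 2.04-fold above *Stat5b* (counting interval 1.99 to 2.10). *Stat4*, a factor of lymphoid cells, had 0.0622, from an estimated 5.10 reads per library. STAT5 is switched on by phosphorylation, which transcript levels do not measure.

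**Figure D2:**
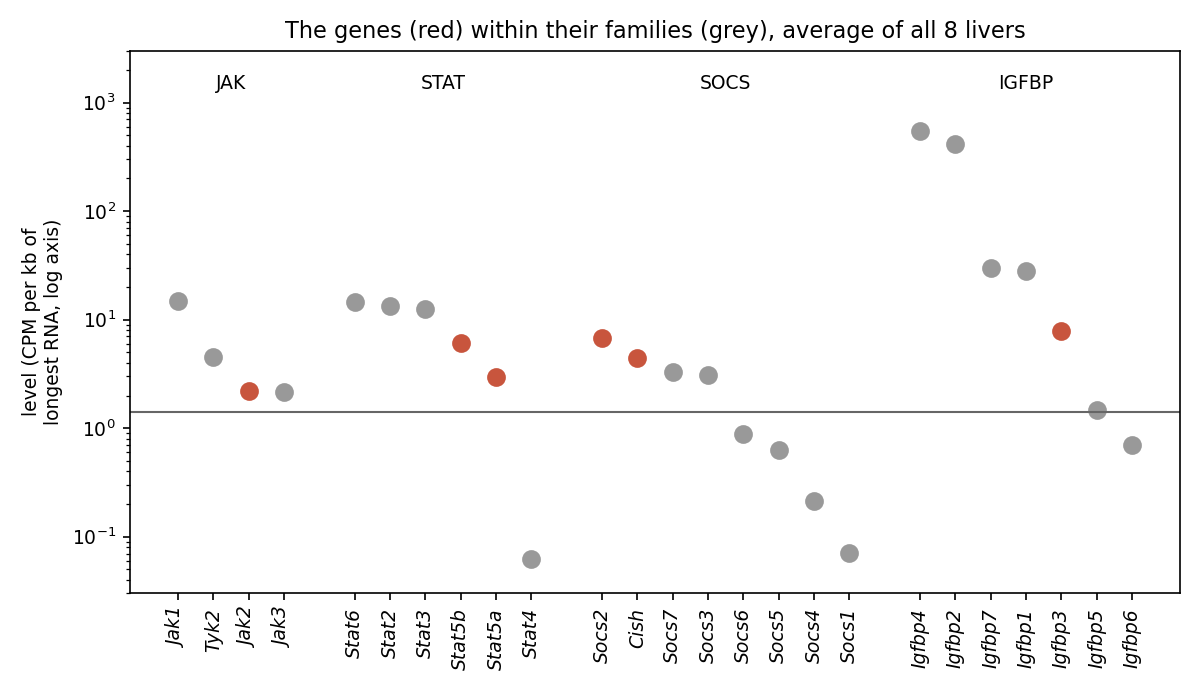
Level of each gene (vertical log axis, CPM per kilobase of longest RNA; average of all 8 libraries) in 4 families, ordered by level within each; genes of the axis are red, other family members grey, and the line is the median of all named genes with reads. *Socs2* and *Cish* head the SOCS family at 6.72 and 4.39, while *Jak2*, both *Stat5* genes and *Igfbp3* stand in the middle or lower part of their families.

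*Igf1* lies on chromosome 10 from 87858265 to 87937042, on the plus strand. It had more reads than any other gene of the axis, with an average log2 CPM of 9.20 and an estimated 16116 reads per library (counting interval 16028 to 16204). Its level per length was 83.2, at percentile 96.2. This value depends on the RNA that is taken, since the longest annotated *Igf1* RNA has 7052 bases and the coding part only 495. Divided by the coding length its level became 1185, and divided by the median length of its 8 coding RNAs, 1368 bases, it became 429. *Igf1* then stood above *Ghr*, which had 191 and 307 on these scales. The order of the leading pair thus turns on the length that is chosen.

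*Igfals* encodes the acid-labile subunit, a glycoprotein of leucine-rich repeats made by hepatocytes, and lies on chromosome 17 from 24865997 to 24882010. Its average log2 CPM was 6.79, an estimated 3042 reads per library (counting interval 3004 to 3081). Per length its level was 42.2, at percentile 93.4, the same with its only coding RNA and 61.2 with the coding length. *Igfbp3*, which encodes the third partner of the circulating complex, lies on chromosome 11 from 7206086 to 7213923. The average log2 CPM of *Igfbp3* was 4.24, an estimated 517 reads per library (counting interval 502 to 533). Its level per length of 7.78, at percentile 76.1, put it 5.42-fold below *Igfals* and 10.7-fold below *Igf1*. In rodent liver *Igfbp3* is known to be made outside hepatocytes, in endothelial and other sinusoidal cells. The level of *Igfbp3* lay within the range of the endothelial markers looked at (1.93 to 26.2), and equally within those of Kupffer cells (1.45 to 33.2) and stellate cells (1.43 to 21.2), so it does not tell these cells apart. In bulk liver, fewer cells of a type and less RNA per cell cannot be told apart.

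The 3 transcripts of the circulating complex spanned a wide range, and *Igfbp3* was not the leading binding protein transcript of these livers. Of the 7 IGF binding protein genes, *Igfbp3* took place 5. *Igfbp4* was highest with a level per length of 549, 70.6-fold above *Igfbp3*, and *Igfbp2* followed with 413, or 53.1-fold. *Igfbp7*, a protein with low affinity for IGFs that endothelial cells make, had 30.1. *Igfbp1*, whose transcript is held down by insulin, had 27.9. *Igfbp5* had 1.48, near the median of all genes, and *Igfbp6* had 0.695. The order of *Igfbp1* and *Igfbp7* changed with the coding length (52.1 and 38.4), but the place of *Igfbp3* did not.

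*Igf2*, a fetal growth factor that is shut off in adult mouse liver, had an estimated 8.18 reads per library and a level per length of 0.0631. *Igf1* stood 1319-fold above it (counting interval 1035 to 1680). *Igf1r*, the receptor through which IGF1 acts, had a level per length of 0.316 at percentile 34.9, and the insulin receptor gene *Insr* had 11.2, 35.6-fold more. *Igf2r*, which clears IGF2, had 3.53. Of the genes whose products release IGF1 from its binding proteins or oppose this, those looked at were near the floor. *Pappa* had an estimated 1.62 reads per library, *Pappa2* 0.506 and the inhibitor *Stc2* 3.88. Of the 13 genes of this list, 7 lay above the median of all genes, 6 lay below it, and the median of the list was 1.48.

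*Socs2* encodes the main brake on growth hormone action and lies on chromosome 10 from 95385362 to 95417180. Its average log2 CPM was 4.84, an estimated 783 reads per library (counting interval 764 to 803), and its level per length was 6.72 at percentile 73.7. Its longest RNA, of 4242 bases, is annotated as a target of nonsense-mediated decay. With the median length of its coding RNAs, 948 bases, the level became 30.1. Of its stretches of 50 bases, 4.19% also occurred in *Gm9847*. *Cish*, the gene of the inhibitor CIS, lies on chromosome 9 from 107296026 to 107302784. It had an average log2 CPM of 4.37, an estimated 566 reads per library (counting interval 550.1 to 583) and a level per length of 4.39 at percentile 66.8. The pseudogene *Gm17040* and the antisense RNA *Gm17041* overlap its exons on the opposite strand, by 261 and 479 bases, or 4.07 and 7.46% of its exonic sequence.

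*Socs2* and *Cish* had the highest levels per length of the 8 SOCS family genes. *Socs7* had 3.27 and *Socs3*, which cytokines of the interleukin 6 family induce, had 3.11. *Socs6*, *Socs5* and *Socs4* lay below the median of all genes with 0.890, 0.634 and 0.215. *Socs1*, an inhibitor of interferon signaling, had 0.0701, from an estimated 5.60 reads per library. Per length *Socs2* stood 2.16-fold above *Socs3* (counting interval 2.05 to 2.28) and 1.53-fold above *Cish* (counting interval 1.47 to 1.59). The coding sequences of *Socs2* and *Cish* were identical at 62.5% of aligned bases with no identical run over 11 bases. The places of *Jak2*, *Stat5a*, *Stat5b*, *Socs2*, *Cish* and *Igfbp3* among the family genes looked at were the same with each of the 3 lengths tried.

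*Bcl6* encodes a zinc finger repressor that is known to oppose STAT5 on shared sites and that is more abundant in male than in female mouse liver. It lies on chromosome 16 from 23965052 to 23988852, on the minus strand. Its average log2 CPM was 4.40, an estimated 576 reads per library (counting interval 559.7 to 593). The level per length was 5.33, at percentile 69.9, close to that of *Stat5b* (6.05). The longest RNA of *Bcl6* is annotated as a retained intron. With the coding length the levels were 9.89 for *Bcl6* and 13.4 for *Stat5b*, and with the median coding RNA 5.95 and 6.14. The promoter window of the second *Bcl6* start is the one with 3 matches to the STAT5 motif.

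The length that is chosen moved the ratios between genes by more than counting error. The ratio of *Stat5b* to *Stat5a* was 2.74 with the coding length and 1.90 with the median coding RNA. *Ghr* stood 58.2-fold and 123-fold above *Jak2* on these scales, and 4.31-fold and 4.53-fold above *Prlr*. The median coding RNA of *Ghr*, 1213 bases, is shorter than its coding length of 1950 bases. Short annotated RNAs thus raise the level of *Ghr* on that scale. *Igf1* stood 55.1-fold and 47.0-fold above *Igfbp3*, and *Igfals* 2.85-fold and 4.63-fold. *Igfbp4* was 128-fold and 311-fold above *Igfbp3*, and *Igfbp2* 27.5-fold and 51.6-fold. *Socs2* was 4.08-fold and 9.66-fold above *Socs3*, and 1.79-fold and 4.00-fold above *Cish*. *Igf1* was 2280-fold and 3605-fold above *Igf2*, and *Insr* 29.1-fold and 66.4-fold above *Igf1r*. *Jak1* was 6.42-fold and 11.0-fold above *Jak2*, and *Stat3* 2.42-fold and 3.27-fold above *Stat5b*. In each of these pairs the same gene was higher with all 3 lengths, which was not so for *Ghr* and *Igf1*. *Jak2* and *Stat5a* were the lowest genes of the axis, and *Igfals* took place 3, with every length.

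**Figure D3:**
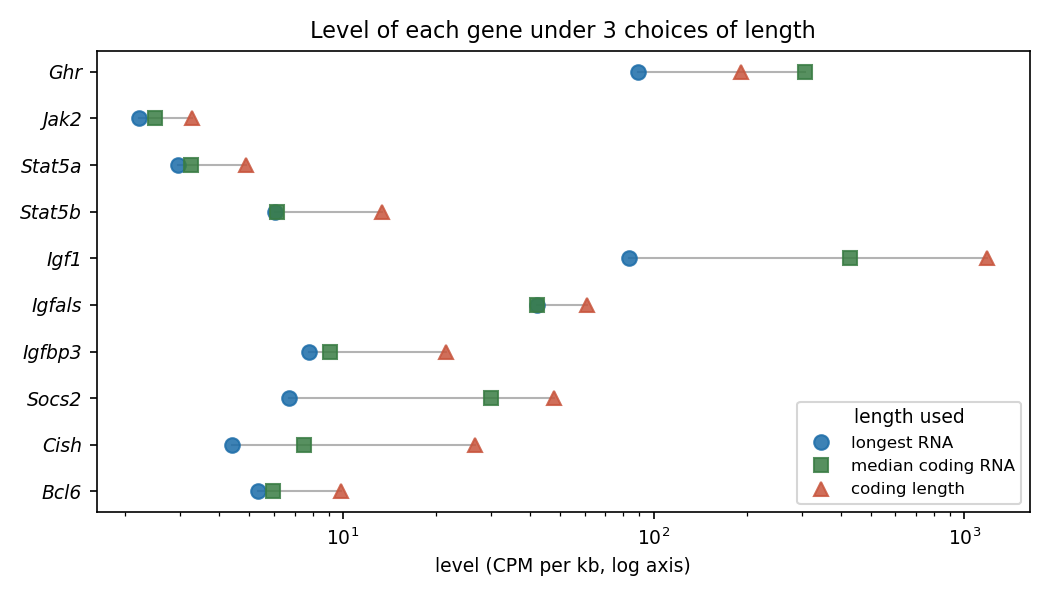
Level of each gene of the axis (horizontal log axis, CPM per kilobase; average of all 8 libraries) with 3 choices of length; a grey line joins the values of 1 gene. The choice moved *Igf1* from 83.2 to 1185 and *Socs2* from 6.72 to 48.0, while *Jak2* stayed between 2.21 and 3.28.

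Other genes of growth hormone signaling were looked at as a list of 17. Growth hormone itself (*Gh*), a pituitary hormone, had 0 reads in 8 libraries with an estimated 219791979 reads on genes in all, which allows a level per length of up to 0.0158 (3 counts over all libraries). Of the 17 genes, 16 had reads, 13 lay above the median of all genes and 4 below, and the list's median level per length was 6.01. The highest was *Hnf4a*, the nuclear receptor that keeps hepatocyte identity and acts beside STAT5, with 186. *Grb2*, an adaptor of the RAS pathway, had 16.3 and *Sh2b1*, an adaptor that binds JAK2, had 15.3. The phosphatases that can act on JAK2 or STAT5 had levels per length of 8.52 (*Ptpn6*), 7.16 (*Ptpn11*), 5.32 (*Ptpn1*) and 4.70 (*Ptpn2*). Besides *Gh* the lowest were *Cux2* with 0.0698, *Grb10* with 0.379 and *Irs2* with 0.460. *Irs1* and *Irs2* encode docking proteins of insulin and IGF1 receptors, and *Irs1* had 1.43, near the median. *Onecut1*, a liver factor under growth hormone control, had 3.40.

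Growth hormone is secreted in pulses in male mice and more evenly in females, and through STAT5 this pattern sets the sex bias of many liver genes. The 10 male-biased genes looked at were all above the median of all genes, with a median level per length of 160.0. The highest were *Mup3* (12653), *Mup20* (2517) and *Cyp2d9* (1053), and the lowest were *Hsd3b5* (124), *Cyp4a12a* (110.3) and *Slco1a1* (77.5). *Mup* genes encode pheromone carriers of urine, and many of them are near-identical copies. How much sequence *Mup3* and *Mup20* share with other *Mup* genes was not examined, so their single values are uncertain. Of the 13 female-biased genes, 12 lay below the median of all genes, and the median of the list was 0.0698. The highest were *Cyp17a1* (8.58), *Cyp2a4* (1.10) and *Cyp2b9* (0.429). *Cyp3a41a* had 0 counted reads, and *Cyp2b13* and *Sult3a1* had levels per length of 0.00722 and 0.0118. Counting error alone would allow *Cyp3a41a* a level per length of up to 0.00663. The *Cyp* genes have similar copies, so reads could be split among them or left uncounted. How reads matching several genes were counted is not given in the sources used here. The low *Cyp* values, and the limit for *Cyp3a41a*, are therefore uncertain. *Cux2*, a female-specific repressor that is also in the signaling list, had an estimated 16.8 reads per library. The lists did not overlap in level. Their genes were chosen for their known sex bias, so in male livers this separation was largely set by the choice. Only males were sequenced, so these values say nothing of a difference between the sexes in this colony.

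**Figure D4:**
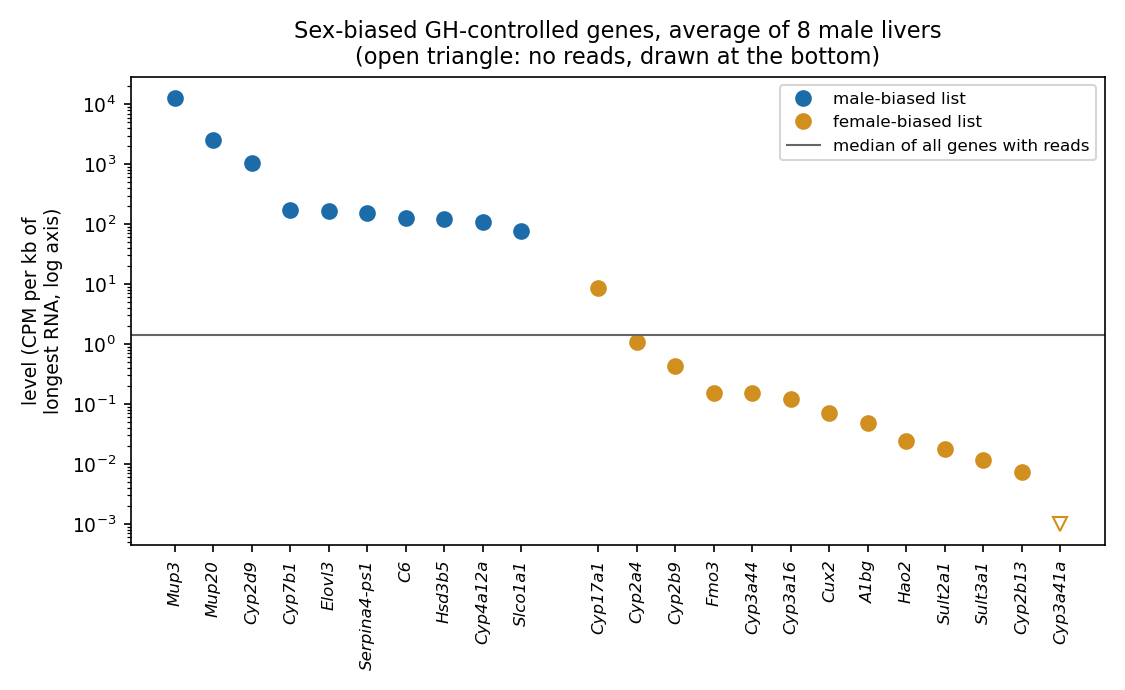
Level (vertical log axis, CPM per kilobase of longest RNA; average of all 8 male livers) of the 10 male-biased and 13 female-biased genes, ordered within each list; the line is the median of all named genes with reads, and the open triangle is *Cyp3a41a*, which had no counted reads. The lowest male-biased gene, *Slco1a1* (77.5), stands above the highest female-biased gene, *Cyp17a1* (8.58).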

How the data were processed

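Livers of 4 wild-type and 4 V227A male mice were sequenced as stranded poly-A paired-end libraries. The authors used Trimmomatic for trimming, STAR for alignment (GRCm38), featureCounts for counting per gene and edgeR for the comparison of genotypes. Tool versions, annotation and the strand setting are not given in the sources used here. The deposited table has 0 columns per library. Its average log2 CPM, which the authors fitted over all 8 libraries, is the value used. Its log2 fold change, F statistic, p-value and FDR hold the authors' own comparison of V227A with wild-type and were not used, so no test was made.

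Genes at the lowest average log2 CPM, -3.78 (8242 genes), were taken to have no reads. Given the default prior count of 2 in the authors' edgeR, that value implies 27473997 reads in the mean effective library, from which each gene's reads per library were estimated. The size of each library is unknown. The estimates of all genes summed to 1.0006 times the library size. This sum is the same for any prior count and is largely set by the definition of CPM, so it does not bear on the choice of 2. Of the 2378 genes with 1 to 5 estimated reads in total, 99.9% lay within 0.1 of a whole number. On counts simulated with the same prior count of 2, the estimated over the true reads of the 16185 genes with at least 1 read per library had a median of 1.000, with 95% of these genes between 0.984 and 1.02. The simulation took its mean levels from this same table and assumed the spread of counts and of library sizes. It therefore checks the back-calculation only, and not the prior count or the real libraries. Counting intervals are exact Poisson intervals at 95% for reads and use a normal approximation on the log scale for ratios. Counting error of the 10 genes was 0.546 to 3.98%.

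Lengths came from GENCODE vM21 (GRCm38), matched by Ensembl ID, Entrez ID or symbol, for 98.5% of named genes with reads. Promoters came from RefSeq GRCm38.p6, and coding sequences were aligned with Biopython 1.88. Other steps used Python 3.11.15, pandas 2.3.3, numpy 2.4.6, scipy 1.17.1 and matplotlib 3.10.9. The members and lists were chosen with earlier results of these data known. All 10 genes of the axis were named, every gene of the signaling, STAT, JAK, SOCS and IGF lists could be, and of the sex-biased and marker lists the 3 highest, the 3 lowest and those without reads. A member of the lists is not reported here. Alternatives were another length, another background of genes and another prior count.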

Additional observations from a re-analysis of the deposited data

How the results depend on the processing

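All values rest on 1 average per gene over both genotypes, so no replicate could be left out and no difference between genotypes, library or batch was examined. No paired analysis was possible because the deposited level carries no replicate number and no test was made. The median percentile of the 10 genes, 72.9, became 77.5 with the coding length, 76.3 without any length, 80.8 with genes without reads included and 57.8 among genes with an average log2 CPM of at least 0. It became 67.0 with the median length of coding RNAs, an alternative chosen after seeing the data. Their median level per length, 6.38, became 24.1 with the coding length and 8.32 with the median coding RNA. The 10 genes at or above the median became 7 of 10 under the filter and 9 of 10 with the median coding RNA. The median of their estimated reads per library, 679.7, was 682 when the prior count was not taken off and 339.8 with a prior count of 1. With a prior count of 1, only 40.2% of the genes with few reads had whole totals, against 99.9% with 2. The longest annotated RNA is not always the one expressed, and its share in these levels was not tested. For *Stat5a*, *Socs2*, *Cish* and *Bcl6* the longest RNA is not annotated as protein-coding.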

Other observations

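Levels of cell type markers give a picture of the tissue in which the axis was measured. The 5 hepatocyte markers had levels per length from 332 (*Cps1*, an enzyme of the urea cycle) through *Serpina1a* (1313) and *Ttr* (5847) to 34208 (*Alb*, serum albumin), with *Apoa1* at 12850. Of the Kupffer cell markers, *Clec4f* (33.2), *Cd5l* (26.8) and *Vsig4* (10.2) were highest, and *Timd4* (1.89) and *Adgre1* (1.45) lowest. The 5 stellate cell markers lay between 1.43 (*Pdgfrb*) and 21.2 (*Dcn*), with a median of 1.95. The endothelial markers ranged from 1.93 (*Kdr*) to 26.2 (*Clec4g*), with a median of 3.81.

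The 4 cholangiocyte markers had a median level per length of 0.953, with *Krt19* highest (2.35) and *Krt7* lowest (0.303). The 4 lymphocyte markers lay between 0.190 (*Cd3e*) and 0.368 (*Nkg7*), and the 3 neutrophil markers between 0.0224 (*Ngp*) and 0.812 (*S100a9*). Globin transcripts of red cells were present, with 124 for *Hbb-bs* and 26.0 for *Hba-a1*. Of the 3 pituitary markers, *Gh* and *Prl* had 0 reads, and *Pomc* had an estimated 2.75 reads per library.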
